A study of Mus musculus with 14 samples.

Results

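The genes that make NAD and turn it into NADP were followed across RNA-seq of mouse 2-cell embryos that had been cultured with or without lactate. The 10 genes were Nampt, Nmnat1, Nmnat2, Nmnat3, Nmrk1, Nadsyn1, Naprt, Nadk, Nadk2 and Nnt. They were taken by symbol from the 56923 genes of the deposited count table, in which 11 rows carried one of these symbols. The second row named Nnt (ENSMUSG00000116207) had 0 counts in all 14 libraries, so 10 rows were described. Each of the 7 conditions had 2 libraries of 5 embryos, and nothing in the labels says whether the 2 came from separate groups of mice, so the p-values measure the spread between libraries, which may be technical. Embryos of ICR mice collected as late zygotes, 24 h after hCG, were grown in a medium with 5 µM Gne140, an inhibitor of the lactate dehydrogenases LDHA and LDHB, and with 50 µM nicotinamide mononucleotide (NMN), an NAD precursor that the study added to make good a loss of NAD+. With 10 mM lactate this medium is called G&N, and without lactate G&N-L. Early 2-cell embryos (30 h after hCG) and late 2-cell embryos (54 h) were taken from both media. A further late G&N-L group had been injected as zygotes with 1 mM lactyl-CoA (Lac-CoA). The last pair, also late 2-cell, is described by the study as injected 14 h after hCG with mixed mRNAs for H3.1, H3.2 and H3.3. These mRNAs either carried the H3K18R change or were wild type (WT). Whether the medium of this pair held NMN, Gne140 or lactate is not stated in the sources used here. For the early libraries the deposited treatment field conflicts with the titles: it names GNE140 alone where the title says G&N and adds NMN where the title says G&N-L. The titles were followed.

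NAD is built from several precursors, and the routes meet at a few enzymes. NAMPT makes NMN from nicotinamide and is regarded as the rate-limiting step of the salvage route, NMRK1 makes NMN from nicotinamide riboside, and NAPRT makes the acid form of the mononucleotide from nicotinic acid. The NMNAT enzymes then join the mononucleotide to an adenylate: NMNAT1 in the nucleus, NMNAT2 at the Golgi and in the cytosol, and NMNAT3 in mitochondria. NADSYN1 amidates the acid form to NAD. NADK in the cytosol and NADK2 in mitochondria phosphorylate NAD to NADP, and NNT in the inner mitochondrial membrane reduces NADP with NADH. NMN in the medium is the product of NAMPT and of NMRK1, and the substrate of the NMNAT enzymes.

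Sequences before the transcription start were printed for Nmnat1 and Nmrk1, which differed most with stage among the genes with counts in every library. They were also printed for Nadsyn1, the 1 gene that was higher without overlap in late G&N-L than in late G&N. RefSeq windows (build GRCm38.p6) were found for 7 of the 10 genes; Naprt, Nadk2 and Nnt had none. The 250 bases before each start are given 5′ to 3′ on the strand of the gene, with the letters CCAAT, or ATTGG where the match is on the other strand, in capitals. Nmnat1 has 2 listed starts, and the window of the one nearer to the coding region is shown.
Nmnat1, chr4:149485173-149485422, minus strand: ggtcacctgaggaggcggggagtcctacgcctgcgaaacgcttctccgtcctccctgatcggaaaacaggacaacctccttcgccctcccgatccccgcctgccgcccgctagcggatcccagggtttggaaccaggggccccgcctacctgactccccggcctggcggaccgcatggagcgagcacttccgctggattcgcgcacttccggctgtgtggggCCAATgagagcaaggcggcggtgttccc
Nmrk1, chr19:18631766-18632015, plus strand: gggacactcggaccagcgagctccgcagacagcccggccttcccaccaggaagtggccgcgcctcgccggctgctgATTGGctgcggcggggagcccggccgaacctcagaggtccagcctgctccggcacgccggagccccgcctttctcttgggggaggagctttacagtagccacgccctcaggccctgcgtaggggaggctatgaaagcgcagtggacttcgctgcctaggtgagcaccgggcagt
Nadsyn1, chr7:143822853-143823102, minus strand: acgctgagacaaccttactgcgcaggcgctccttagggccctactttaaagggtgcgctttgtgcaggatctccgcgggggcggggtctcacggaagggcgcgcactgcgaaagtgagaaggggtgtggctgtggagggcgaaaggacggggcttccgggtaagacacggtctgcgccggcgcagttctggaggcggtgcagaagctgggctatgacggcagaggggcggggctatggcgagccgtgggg
The CCAAT letters begin 28 bases before this Nmnat1 start and, on the other strand, 174 bases before the Nmrk1 start. They are not in the window of the other Nmnat1 start, nor in the Nadsyn1 window, and the Nmnat1 window that holds them was the one chosen to be shown. Over both strands, 33.8% of 32851 windows of the same length in the table hold them. GGGCGG or its complement is in the Nadsyn1 window 2 times, in the Nmnat1 window once and not in the Nmrk1 window, against 32.7% of all windows with at least one. GGATTA, searched the same way, is in none of the windows of these genes and in 6.25% of all windows.

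Levels are given as CPM, the counts of a gene scaled to a common library size after TMM scaling over the 14 libraries, and levels compared between genes are divided by the length of the gene's merged exons. Libraries held between 20350427 and 61275465 counts, so 3 counts, taken as the floor, correspond to between 0.0589 and 0.144 CPM on this scale. Of the 10 genes, Nampt had the highest mean level per kilobase over the 14 libraries (9.93 CPM per kb), followed by Nmnat1 (8.24) and Nadk (4.81). Nmrk1 (1.48), Nmnat2 (1.10), Nadk2 (0.822) and Nadsyn1 (0.681) were lower. Naprt (0.323), Nmnat3 (0.205) and Nnt (0.0463) were the lowest, and were at 0 counts in 6, 7 and 4 of the 14 libraries. Summed over the 10 genes, the level ran from 66.7 to 89.4 CPM in the 4 early libraries and from 132 to 246 CPM in the 10 late ones. Because these are whole-embryo libraries scaled to their totals, a change in a gene's RNA per embryo and a change in the total RNA of an embryo cannot be told apart.

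**Figure D1:**
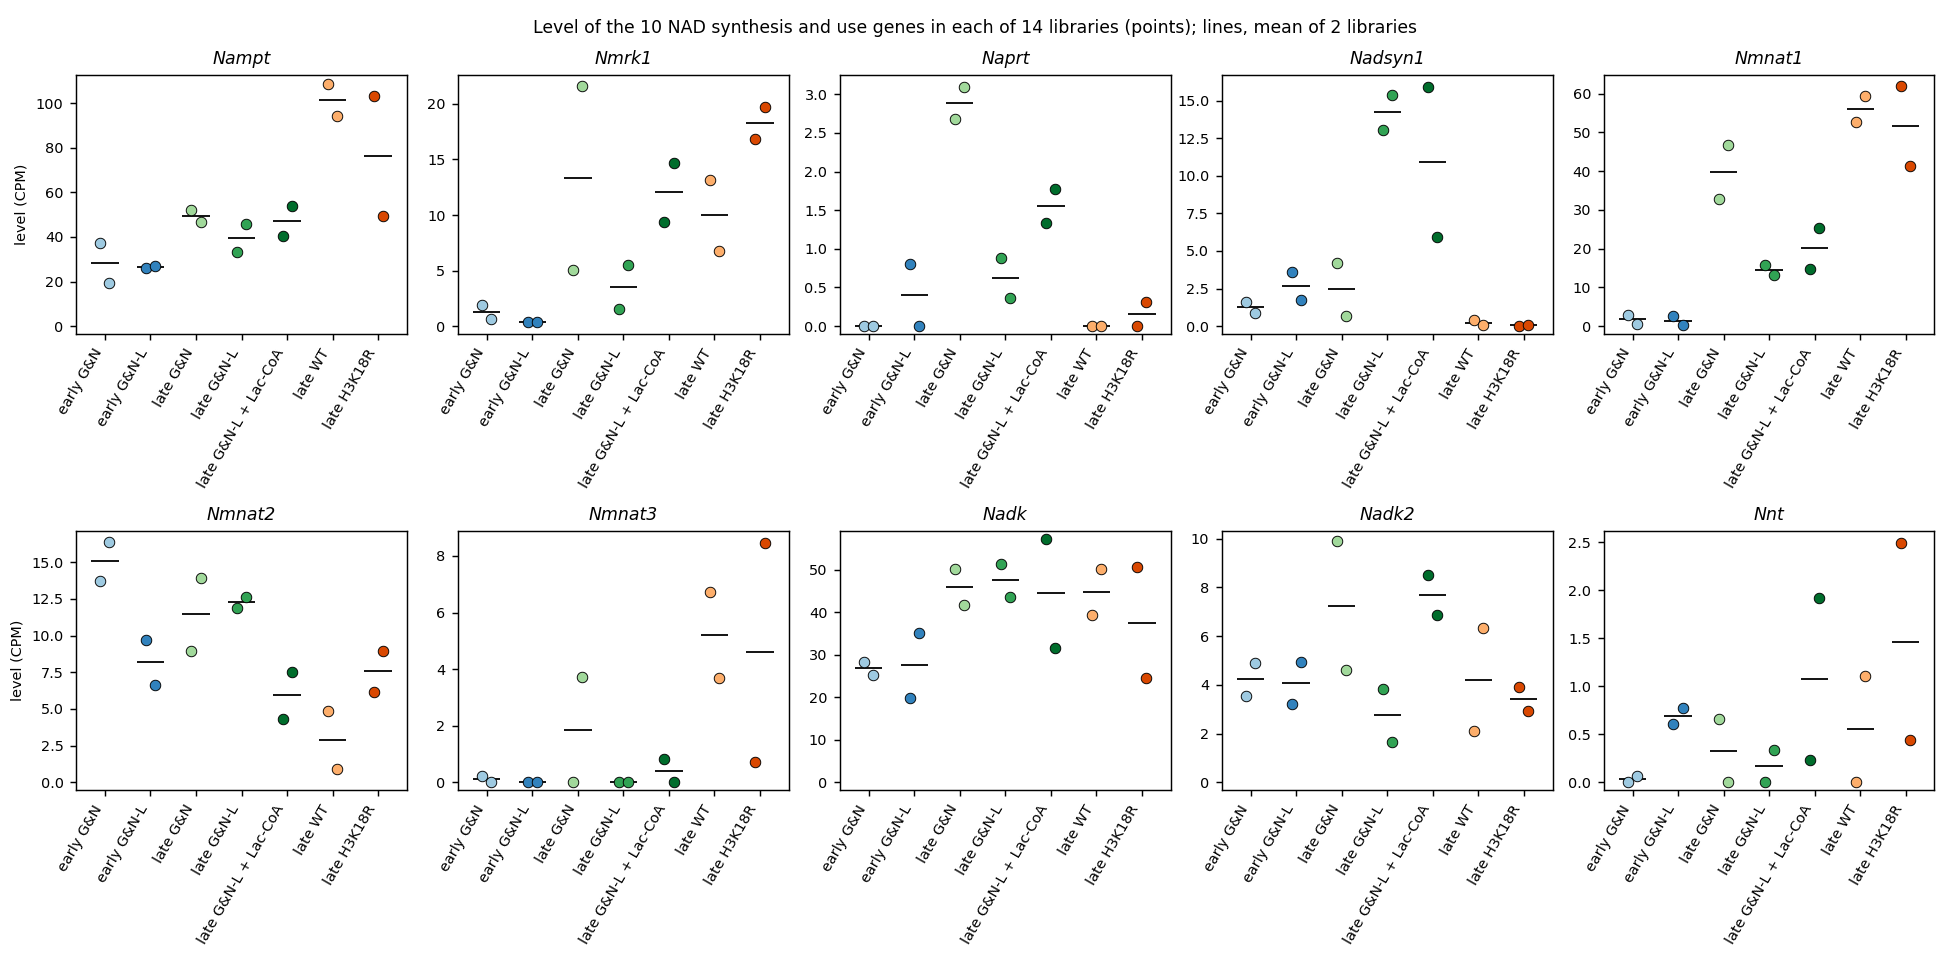
Level of each of the 10 genes (y axis, CPM, linear and different for each gene) in each library (points) of the 7 conditions (x axis), with a line at the mean of the 2 libraries. Nmnat1 is between 0.181 and 2.92 CPM in the 4 early libraries and between 13.1 and 61.8 CPM in the 10 late ones, while Nadsyn1 is highest in late G&N-L and in late G&N-L + Lac-CoA.

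The question of stage was put first, late against early 2-cell embryos in the same medium. In G&N, Nmnat1, the nuclear adenylyltransferase (chr4:149552026-149569680, minus strand, mm39), was at 2.92 and 0.523 CPM in the early libraries (149 and 23 counts) and at 32.9 and 46.7 CPM in the late ones. The groups did not overlap, and the 2 early libraries themselves differed several-fold. The means were 1.72 ± 1.7 and 39.8 ± 9.7 CPM (SD, n = 2), a 23.1-fold rise with a log2 fold change of 4.52 (SE 0.864) and an adjusted p of 0.0311 by edgeR. Leaving out a library moved this log2 fold change between 3.81 and 6.18. The call was kept without either early library and lost without late replicate 1 (adjusted p = 0.0929) or late replicate 2 (0.109), where the lone late library was assumed to vary like the early ones.

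Naprt, the entry enzyme for nicotinic acid (chr15:75762805-75766413, minus strand), had 0 counts in both early G&N libraries and 98 and 135 counts in the late ones, which is 2.68 and 3.10 CPM. Against the floor of 3 counts per library the late mean was at least 45.5-fold higher, and the edgeR adjusted p was 0.0405. The call did not hold when any of the 4 libraries was left out (adjusted p from 0.0538 to 0.157). Merged exons of Naprt share 14.4% of their length with Eef1d, a translation elongation factor gene on the same strand, and reads from that stretch cannot be assigned to one of them. These were the only 2 of the 8 genes tested that passed the threshold, both higher at the late stage, where 8.18% of the 19443 genes tested rose and 13.7% changed in either direction. Naprt passed the count filter only through the late libraries, where it was high, so its p-value adds nothing to the counts given.

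Nmrk1, the riboside kinase, was at 1.88 and 0.614 CPM in the early G&N libraries and at 5.01 and 21.6 CPM in the late ones. The late values were all above the early ones but differed 4.31-fold between the 2 libraries, and the log2 fold change of 3.38 (SE 1.02) had an edgeR p of 0.0183, adjusted 0.0748. DESeq2 put it past the threshold (adjusted p = 0.00209). There DESeq2 called 3 of the 8 genes tested, against 31.9% of all genes it tested. The others were Nmnat1 and Naprt, which passed the count filter only through the late libraries. Nampt went from 37.3 and 19.4 CPM to 52.0 and 46.8 CPM (log2 fold change 0.76, SE 0.380, adjusted p = 0.228), and Nadk, the cytosolic NAD kinase, from 28.2 and 25.3 CPM to 50.1 and 41.6 CPM (0.71, SE 0.325, adjusted p = 0.195). Both had late values above the early ones without passing the test. Nmnat2 (−0.48, SE 0.495), Nadk2 (0.69, SE 0.736) and Nadsyn1 (0.93, SE 1.27) overlapped between the stages. At an unadjusted p under 0.05 there were 3 of the 8 genes, against 34.4% of all genes. The median log2 fold change of the 8 genes was 0.85 and that of all genes tested 0.08. This median lies between the values of Nampt and Nadsyn1, neither of which passed. Nadsyn1 moved to −0.92 without late G&N replicate 1, so the median is not read as a rise of the set.

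In G&N-L the same stage comparison had no call by edgeR among 9 genes tested, where 11.8% of 18604 genes passed. Nmnat1 was at 2.57 and 0.181 CPM (102 and 4 counts) in the early libraries and at 15.7 and 13.1 CPM in the late ones, and the groups did not overlap. Its means differed 10.5-fold (log2 fold change 3.34, SE 1.18, adjusted p = 0.120), and without early replicate 1, the higher of the early pair, it passed with 6.17 (adjusted p = 0.0266). Nmrk1 was at 0.353 and 0.363 CPM early (14 and 8 counts) and at 1.56 and 5.48 CPM late (3.22, SE 1.21, adjusted p = 0.139). Nadsyn1, the NAD synthetase (chr7:143349314-143376610, minus strand), was at 3.63 and 1.77 CPM early and at 13.1 and 15.4 CPM late. Its log2 fold change of 2.34 (SE 0.578) had a p of 0.00917, adjusted 0.0620. These 3 genes had an unadjusted p under 0.05, against 32.5% of all genes, and DESeq2 called the 3 of them, against 29.8% of all genes. The median of the 9 genes was 0.60 and that of all genes 0.15. This median is the value of Naprt (SE 2.03), which had 34 and 14 counts late against 32 and 0 early.

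The NMNAT genes did not keep their order between the stages. Per kilobase, Nmnat1 made up 35.0% and 7.59% of the summed level of Nmnat1, Nmnat2 and Nmnat3 in the early G&N libraries and 40.4% and 6.57% in the early G&N-L libraries, and Nmnat2 led in these 4 libraries. In the 10 late libraries the Nmnat1 share lay between 72.7% and 97.1%. It was lowest in the 2 late G&N-L libraries (77.2% and 72.7%), against 90.4% and 87.2% in late G&N and 88.1% and 89.6% in late G&N-L + Lac-CoA. With the longest transcript as the gene length the ranges were 6.08% to 38.4% early and 71.0% to 95.1% late. Nmnat3 was at 0 counts in 3 of the 4 early libraries and reached 6.64% of the sum in one H3K18R library. Of the entry enzymes Nampt, Nmrk1 and Naprt, Nampt led in every library, with 92.7% to 98.8% of their summed level per kilobase in the early libraries and 63.6% to 93.7% in the late ones. Nadk held 76.7% to 94.9% of the summed level of Nadk and Nadk2 over the 14 libraries.

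**Figure D2:**
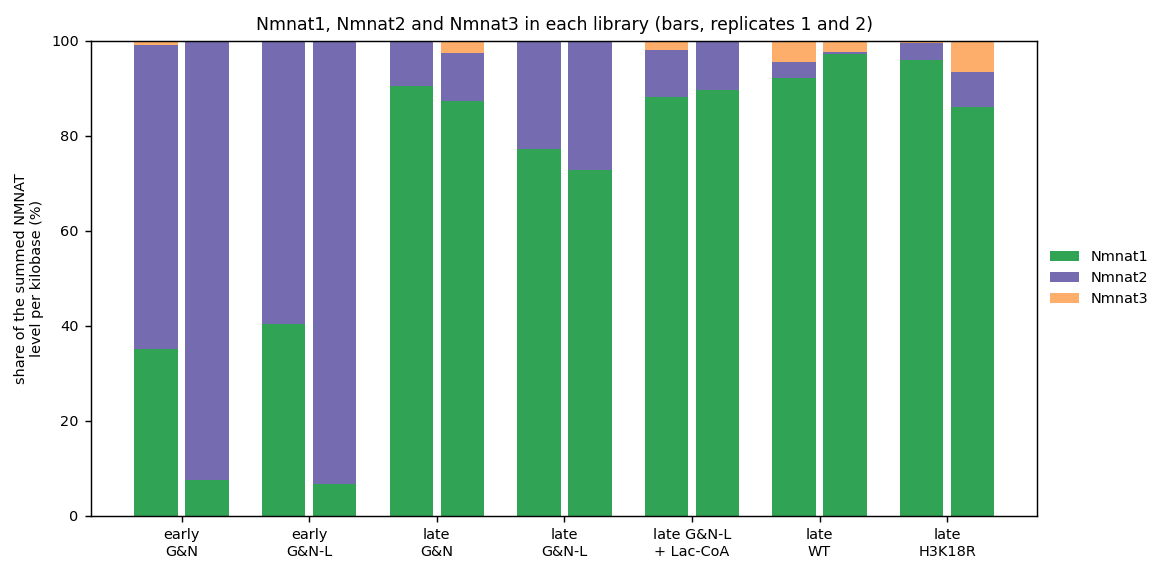
Share of Nmnat1, Nmnat2 and Nmnat3 in their summed level per kilobase (y axis, %, stacked bars) in each of the 14 libraries, 2 bars per condition (x axis). Nmnat2 takes the larger share in the 4 early libraries, with Nmnat1 between 6.57% and 40.4%, and Nmnat1 takes between 72.7% and 97.1% in the 10 late libraries.

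Whether lactate changed these genes was asked by comparing G&N-L with G&N at each stage. In late embryos Nmnat1 was at 15.7 and 13.1 CPM without lactate and at 32.9 and 46.7 CPM with it, so that both G&N-L libraries were below both G&N libraries. The mean was 2.76-fold lower in G&N-L, 14.4 ± 1.8 against 39.8 ± 9.7 CPM (SD, n = 2), with a log2 fold change of −1.41 (SE 0.348). The edgeR p was 0.00800 and the adjusted p 0.324. DESeq2 gave an adjusted p of 0.0301 and called Nmnat1 alone of the genes tested, against 4.99% of all genes. The log2 fold change lay between −1.61 and −1.10 with any one library left out.

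Nadsyn1 differed the other way. It was at 13.1 and 15.4 CPM in late G&N-L and at 4.19 and 0.689 CPM in late G&N, without overlap. The log2 fold change was 2.56 (SE 0.945, adjusted p = 0.371 by edgeR), 4.45 without G&N replicate 1 and 1.85 without G&N replicate 2. Naprt was at 0.884 and 0.365 CPM against 2.68 and 3.10 CPM (−2.15, SE 1.14, adjusted p = 0.588), and Nadk2 at 3.85 and 1.67 against 9.91 and 4.59 CPM (−1.35, SE 0.808, adjusted p = 0.646). Both were lower without overlap and did not pass. Nmrk1 (1.56 and 5.48 against 5.01 and 21.6 CPM) and Nmnat2 (11.9 and 12.6 against 8.98 and 13.9 CPM) overlapped. Nampt (33.4 and 45.8 against 52.0 and 46.8 CPM) was also lower without overlap, by a narrow margin, with a log2 fold change of −0.28 (SE 0.293). Nadk (51.2 and 43.6 against 50.1 and 41.6 CPM) overlapped, with 0.09 (SE 0.283). Nmnat3 was at 0 counts in both G&N-L libraries and in one G&N library. By edgeR 0 of the 9 genes tested passed, and 0% of the 19481 genes tested did. At an unadjusted p under 0.05 there were 2 of the 9 (Nmnat1 and Nadsyn1), against 12% of all genes. The median log2 fold change of the 9 genes was −0.94 and that of all genes −0.02. This median is the value of Nnt (SE 2.81), which had 0 and 13 counts against 24 and 0, so it describes no shift of the set.

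In early embryos none of the 8 genes tested passed by edgeR or by DESeq2, and 0% of the 17343 genes tested passed by edgeR and 0.247% by DESeq2. At an unadjusted p under 0.05 there were 0 of the 8, against 4.52% of all genes. Nampt was at 26.0 and 27.0 CPM without lactate and 37.3 and 19.4 CPM with it, and Nmnat1 at 2.57 and 0.181 against 2.92 and 0.523 CPM; both overlapped. Nmnat2 was lower without lactate, at 9.73 and 6.62 against 13.7 and 16.4 CPM, with a log2 fold change of −0.78 (SE 0.415, adjusted p = 1 by edgeR). Nadsyn1 was at 3.63 and 1.77 against 1.63 and 0.865 CPM (1.24, SE 0.938).

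Whether the difference between media itself changed with stage was tested as an interaction over the 8 libraries of both stages. It passed for 0 of 9 genes by edgeR and by DESeq2, and for 0% of all genes tested by edgeR and 1.25% by DESeq2. The log2 interaction was −1.21 (SE 1.40) for Nmnat1 and 1.38 (SE 1.28) for Nadsyn1. At an unadjusted p under 0.05 there was 1 gene, Naprt (adjusted p = 0.650), against 7.55% of all genes, and one of the 4 groups behind that value had 0 counts.

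The Lac-CoA injection was set against late G&N-L, from which it differs by the injection, and against late G&N; the comparisons with late G&N-L or late G&N share those libraries with the comparisons above. With Lac-CoA, Nmnat1 was at 14.8 and 25.3 CPM, overlapping late G&N-L (15.7 and 13.1 CPM; log2 fold change 0.42, SE 0.435) and below both late G&N libraries (−0.89, SE 0.404, adjusted p = 0.673). Nmrk1 was at 9.37 and 14.7 CPM, above both late G&N-L libraries (1.73, SE 0.788, adjusted p = 0.447) and between the 2 late G&N libraries. Nadsyn1 was at 15.9 and 5.95 CPM, overlapping late G&N-L (−0.42, SE 0.604) and above both late G&N libraries (2.23, SE 1.06, adjusted p = 0.701). These placements rest on 2 libraries per group, and Nmrk1 overlapped between late G&N-L and late G&N themselves. None of the differences passed the test, so no pattern among the 3 genes is read from them.

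Nmnat2 was at 4.33 and 7.54 CPM with Lac-CoA, below both late G&N-L libraries (−1.10, SE 0.536, adjusted p = 0.480), and Nadk2 at 8.51 and 6.85 CPM was above both (1.42, SE 0.748, adjusted p = 0.522). Nampt (40.3 and 54.1 CPM) and Nadk (57.2 and 31.5 CPM) overlapped with late G&N-L. Against late G&N-L 0 of 9 genes passed by edgeR and by DESeq2, with 0% of 19610 genes passing by edgeR and 6.28% by DESeq2, and 0 of the 9 had an unadjusted p under 0.05, against 13.3% of all genes. Against late G&N it was 0 of 10 by both tools, with 0% of all genes by edgeR and 2.55% by DESeq2, and 0 of the 10 at an unadjusted p under 0.05, against 8.51% of all genes.

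The H3K18R and WT embryos were compared at the late stage. Reads of H3c1, a histone H3 gene, numbered 43643 and 83390 in the H3K18R libraries but 4 and 3 in the WT libraries. Only the first group stood out in this gene, and the count table names the mutant columns K18A. The H3K18R change and the difference in H3c1 RNA therefore cannot be told apart here. No gene of the 8 tested passed by edgeR or by DESeq2, and 0.00565% of 17704 genes (1 gene) passed by edgeR and 0.708% by DESeq2; 0 of the 8 had an unadjusted p under 0.05, against 6.44% of all genes. Nampt was at 103 and 49.3 CPM in H3K18R and at 108 and 94.2 CPM in WT (log2 fold change −0.40, SE 0.422), and Nmnat1 at 61.8 and 41.4 against 52.6 and 59.4 CPM (−0.11, SE 0.344). Both overlapped. Nmrk1 was above both WT values (16.9 and 19.7 against 13.1 and 6.79 CPM; 0.88, SE 0.526, adjusted p = 0.865), and so was Nmnat2 (6.18 and 8.94 against 4.83 and 0.895 CPM; 1.41, SE 0.994, adjusted p = 0.892). Nadsyn1 and Naprt were not tested there, since neither had more than 9 counts in any of the 4 libraries.

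WT and late G&N embryos were of the same age but came through different procedures. The study describes an injection at the zygote stage for WT, where H3c1 did not stand out, and a Gne140 medium for G&N. These procedures, any difference between the 2 experiments and any difference in developmental progress cannot be told apart. The summed maternal marker genes described below were at 2361 and 2446 CPM in WT and at 5931 and 6467 CPM in late G&N. The summed late 2-cell marker genes were at 2804 and 2437 CPM in WT and at 3081 and 3351 CPM in late G&N. Zp3 of the maternal genes, and Dppa2 and Dppa4 of the late 2-cell genes, went the other way and were higher in WT without overlap. The part of the marker genes in the differences below was not tested. Nampt was at 108 and 94.2 CPM in WT and at 52.0 and 46.8 CPM in late G&N, 2.05-fold higher in WT without overlap (log2 fold change 0.99, SE 0.241). Its edgeR p was 0.00824 and its adjusted p 0.0776, and by DESeq2 the adjusted p was 0.00253. Naprt had 0 counts in both WT libraries, so that late G&N was at least 25.9-fold higher (adjusted p = 0.0694 by edgeR, 0.00129 by DESeq2). It passed the count filter only through late G&N, so these p-values add nothing to the counts. Nadsyn1 was at 0.391 and 0.0617 CPM in WT (9 and 2 counts), below both late G&N libraries (−3.50, SE 1.71, adjusted p = 0.266), and Nmnat2 was also below both (−2.04, SE 0.932, adjusted p = 0.236). Nmnat1, at 52.6 and 59.4 CPM in WT, was above both late G&N libraries by 0.45 (SE 0.283, adjusted p = 0.381). By edgeR 0 of 10 genes passed, against 4.62% of 18986 genes, and 2 had an unadjusted p under 0.05, against 28% of all genes; DESeq2 called the same 2, Nampt and Naprt, against 22% of all genes.

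**Figure D3:**
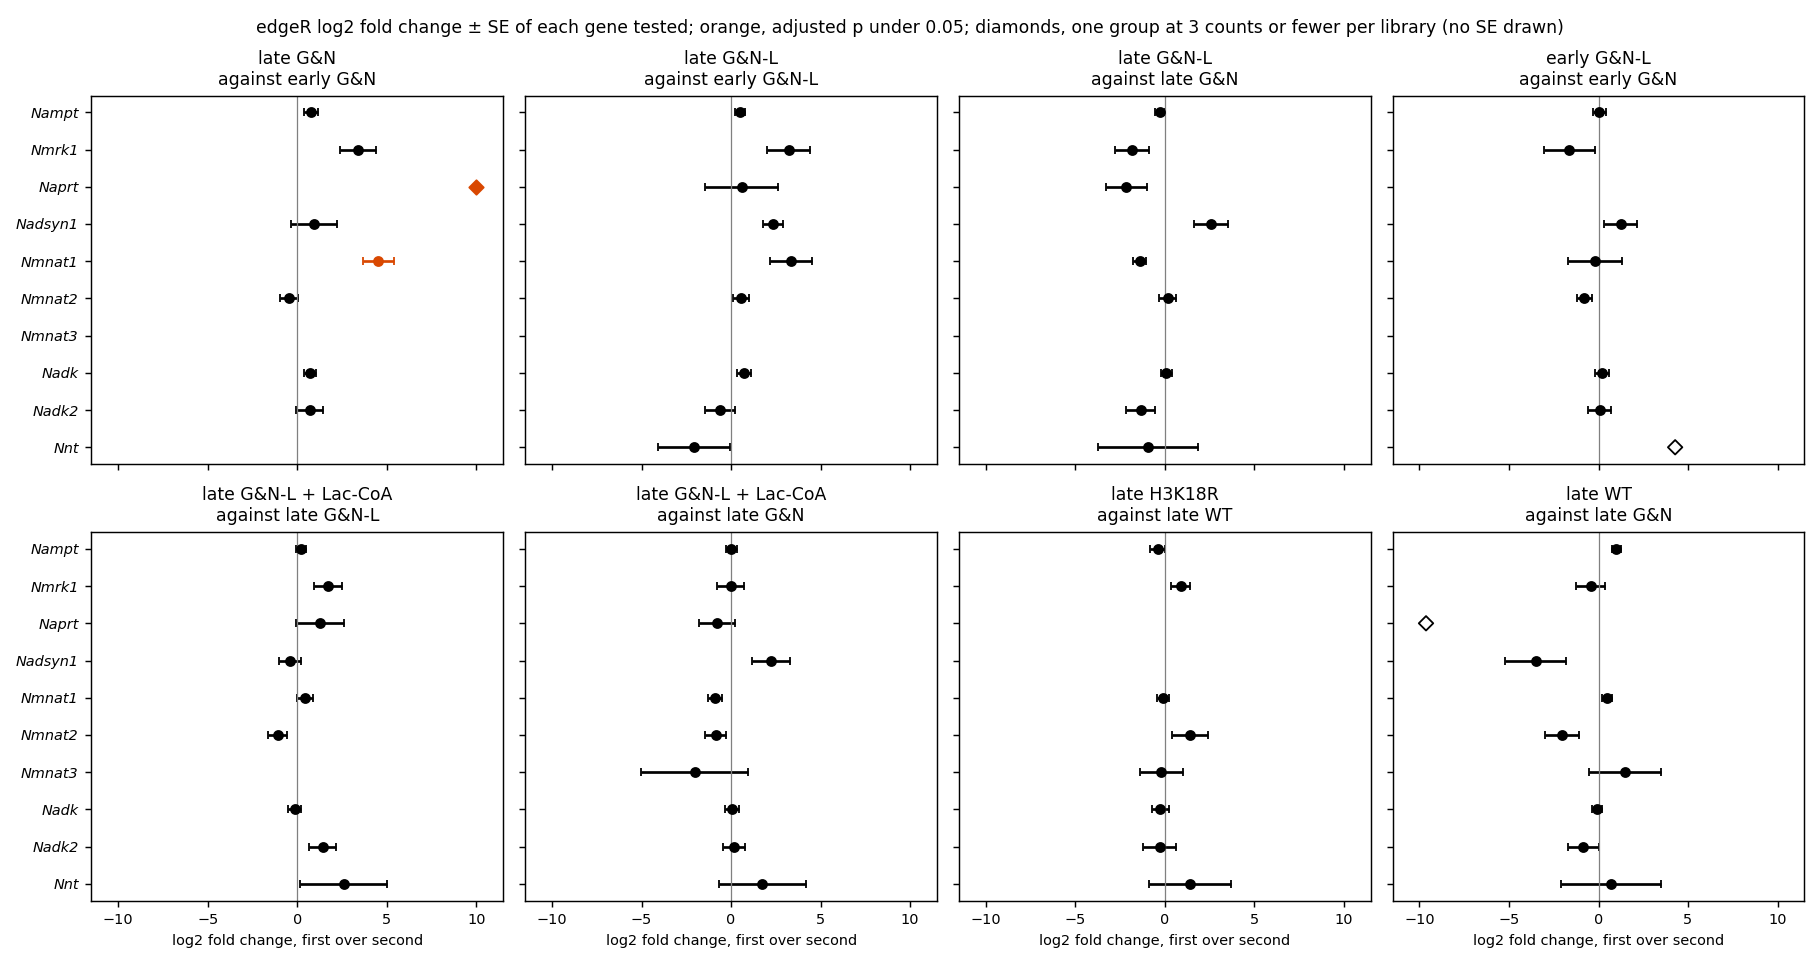
edgeR log2 fold change of each gene tested (x axis, first group over second) with its SE in the 8 comparisons; orange marks an adjusted p under 0.05, and diamonds mark genes with 3 counts or fewer per library in one group, whose fitted value depends on the small count added by the fit. Nmnat1 (4.52) and Naprt are orange in late against early G&N, and no gene is orange in the other 7 comparisons.

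Ordered by mean level over the 7 conditions, Nampt was highest in late WT (101 ± 10 CPM), then late H3K18R (76.3 ± 38), late G&N (49.4 ± 3.7), late G&N-L + Lac-CoA (47.2 ± 9.8), late G&N-L (39.6 ± 8.8), early G&N (28.3 ± 13) and early G&N-L (26.5 ± 0.72; SD, n = 2 in each), and each neighbouring pair in that order overlapped. Nmnat1 ran from late WT (56.0 ± 4.8 CPM) over late H3K18R (51.6 ± 14), late G&N, late G&N-L + Lac-CoA (20.03 ± 7.5) and late G&N-L to the early groups, and only late G&N and late G&N-L stood above the next condition without overlap. Nadk lay between 37.5 and 47.4 CPM in the 5 late means and at 26.8 and 27.5 CPM in the early means, and its neighbours overlapped throughout. Nnt, the transhydrogenase, did not exceed 83 counts or 2.49 CPM in any library. Nmnat3 reached 8.46 CPM in one H3K18R library and was at 0.719 CPM in the other.

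Over the 7 condition means, the genes whose levels followed Nampt most closely among 25040 others were Tm4sf20 (Pearson r = 0.9965) and Gm11309 (0.9963). For Nadk these were A230083N12Rik (0.999) and Gm17895 (0.9864), and for Nmnat1 Rprd1b (0.9974) and Ikbip (0.997). These are correlations over 7 points that share libraries and stage, picked as the highest of many, and carry no test.

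The rest of NAD metabolism was read from 4 lists of 50 genes, of which 32 to 38 were tested in each comparison. In the comparisons of lactate, Lac-CoA and H3K18R, 0 of them passed by edgeR. DESeq2 called 2 of 35 in late G&N-L against late G&N (Naxe and Sirt1, lower), where it called 4.99% of all genes. In early embryos it called 0 of 32, against 0.247%. With Lac-CoA it called 2 of 34 against late G&N-L (Sirt1 higher, Me1 lower), against 6.28%. Against late G&N it called 2 of 34 (Me1 and G6pdx, lower), against 2.55%. In H3K18R against WT it called 2 of 36 (Slc12a8 and Idh1, higher), against 0.708%. Slc12a8 was at 0 in WT, so its call adds nothing to the counts. In late G&N-L against late G&N, 3 of 35 had an unadjusted p under 0.05, against 12% of all genes: Naxe, which repairs damaged NADH and NADPH (11.7 and 15.01 against 36.5 and 62.2 CPM, lowest and highest library, log2 fold change −1.82, SE 0.381, adjusted p = 0.313 by edgeR), the NAD-dependent deacetylase Sirt1 (47.1 and 77.0 against 138 and 138 CPM, −1.11, SE 0.295, adjusted p = 0.332) and malic enzyme Me1 (334 and 368 against 530 and 555 CPM, −0.58, SE 0.177, adjusted p = 0.333). In early G&N-L against early G&N 1 of 32 did, against 4.52% of all genes, the mitochondrial NAD carrier Slc25a51 (13.4 and 21.5 against 35.0 and 40.1 CPM, −0.997, SE 0.314, adjusted p = 1). With Lac-CoA, 5 of 34 did so against late G&N-L, where 13.3% of all genes did, among them Sirt1 (115 and 152 against 47.1 and 77.0 CPM, 1.06, SE 0.312), Naxe (25.3 and 41.1 against 11.7 and 15.01 CPM, 1.27, SE 0.410) and Me1 (198 and 213 against 334 and 368 CPM, −0.82, SE 0.170), with edgeR adjusted p-values from 0.294 to 0.309; the other two were G6pdx (−0.67, SE 0.227) and Parp2 (0.60, SE 0.234). Against late G&N it was 9 of 34, where 8.51% of all genes did, and 0 of these 9 passed after adjustment by edgeR. Of the 10 NADPH makers tested, 6 were among them. Me1 (198 and 213 against 530 and 555 CPM), G6pdx, Idh1 and Me3 were lower with Lac-CoA, and Idh2 and Me2 higher. The remaining genes were Tnks2 and Naxd, which were higher, and Nmrk2, which was lower. Me3 and Nmrk2 were at 0 with Lac-CoA and Naxd did not exceed 0.0548 CPM in late G&N, so these passed the count filter through 1 group only. In H3K18R against WT it was 5 of 36, against 6.44% of all genes, namely Slc12a8, Idh1, Me3, Aldh1l2 and Tnks, of which Slc12a8, Me3 and Aldh1l2 had 0 counts in one of the groups.

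Between the stages 6 of 36 listed genes passed by edgeR in G&N, where 13.7% of all genes did, and 5 of 33 in G&N-L, where 11.8% did. Among the NAD consumers, 16 genes of which 13 were tested in G&N, Sirt4 and Sirt6 fell and Sirt1 and Parp2 rose in that medium. In G&N, Sirt4, a mitochondrial sirtuin, went from 59.0 and 108 CPM to 4.79 and 6.43 CPM (−3.94, SE 0.419, adjusted p = 0.00906 by edgeR), nuclear Sirt6 from 32.7 and 55.8 to 5.74 and 6.79 CPM (−2.87, SE 0.418, 0.0164) and nuclear Sirt1 from 29.8 and 47.4 to 138 CPM in both libraries (1.74, SE 0.378, 0.0418). In G&N-L, Sirt4 (−3.25, SE 0.329, adjusted p = 0.00887) and Sirt6 (−2.94, SE 0.406, 0.0172) also fell, and Sirt1 did not pass (0.59, SE 0.298, 0.257). Parp2, a poly(ADP-ribose) polymerase, went from 15.7 and 16.6 to 48.3 and 75.5 CPM in G&N (1.86, SE 0.382, adjusted p = 0.0368) and from 21.5 and 23.97 to 45.6 and 51.0 CPM in G&N-L (1.03, SE 0.243, adjusted p = 0.0571). The median of the 13 consumers in G&N was −0.36, against 0.08 over all genes.

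Among 13 NADPH makers, of which 11 were tested at both, Me1 and cytosolic isocitrate dehydrogenase Idh1 fell with stage in either medium. Me1 went from 1496 and 1773 CPM to 530 and 555 CPM in G&N (−1.66, SE 0.224, adjusted p = 0.0142 by edgeR) and from 1265 and 1286 CPM to 334 and 368 CPM in G&N-L (−1.92, SE 0.144, adjusted p = 0.00583). Idh1 went from 78.3 and 92.4 CPM to 16.6 and 30.6 CPM in G&N (−1.93, SE 0.389, adjusted p = 0.0354) and from 72.9 and 86.2 CPM to 13.0 and 14.1 CPM in G&N-L (−2.62, SE 0.251, adjusted p = 0.00796). By edgeR 0 of the list were called higher in either medium. By DESeq2, Pgd, Idh2 and Glud1 were called higher in G&N and Idh2 and Glud1 in G&N-L, beside 2 and 3 genes called lower. Idh2 was at 0 in every early library, and late at 0.958 and 1.86 CPM in G&N and 1.80 and 3.95 CPM in G&N-L. It passed the count filter only through the late libraries, so its calls add nothing to these levels. Of 12 genes of precursor handling, transport and repair, Noct, a phosphatase that turns NADP(H) into NAD(H), fell in G&N-L, from 114 and 125 CPM to 59.3 and 61.8 CPM (−1.04, SE 0.177, adjusted p = 0.0276); with lactate the early libraries were at 30.8 and 128 CPM, and Noct differed by 0.08 (SE 0.618). Of 9 genes of de novo synthesis from tryptophan, 3 were tested in G&N and 2 in G&N-L, and 0 passed. Without late G&N replicate 1 or replicate 2, 0 of the 6 passed in G&N; Sirt4, Sirt6 and Me1 then had adjusted p-values of 0.0589, 0.0802 and 0.0937, or 0.0542, 0.0880 and 0.0899. In G&N-L between 2 and 4 of the listed genes passed with a library left out, the fewest without late G&N-L replicate 1, where Idh1 missed the threshold (0.0606).

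In WT against late G&N 4 of 38 listed genes passed by edgeR, where 4.62% of all genes did, and 14 by DESeq2, where 22% did. Sirt1 was higher in WT (350 and 351 against 138 and 138 CPM, 1.30, SE 0.188, adjusted p = 0.0413 by edgeR). Idh1 (0.926 and 2.00 against 16.6 and 30.6 CPM, −4.05, SE 0.658, adjusted p = 0.0431) and glucose-6-phosphate dehydrogenase G6pdx (14.8 and 42.7 against 212 and 217 CPM, −2.95, SE 0.535, adjusted p = 0.0497) were lower. Slc12a8, which has been described as an NMN transporter, had 0 counts in WT and 5.05 and 9.80 CPM in late G&N, at least 66.6-fold higher there (adjusted p = 0.0456). It too passed the count filter only through late G&N. The calls of Sirt1, Idh1 and Slc12a8 missed the threshold when any one of the 4 libraries was left out, with adjusted p from 0.0541 to 0.163.

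**Figure D4:**
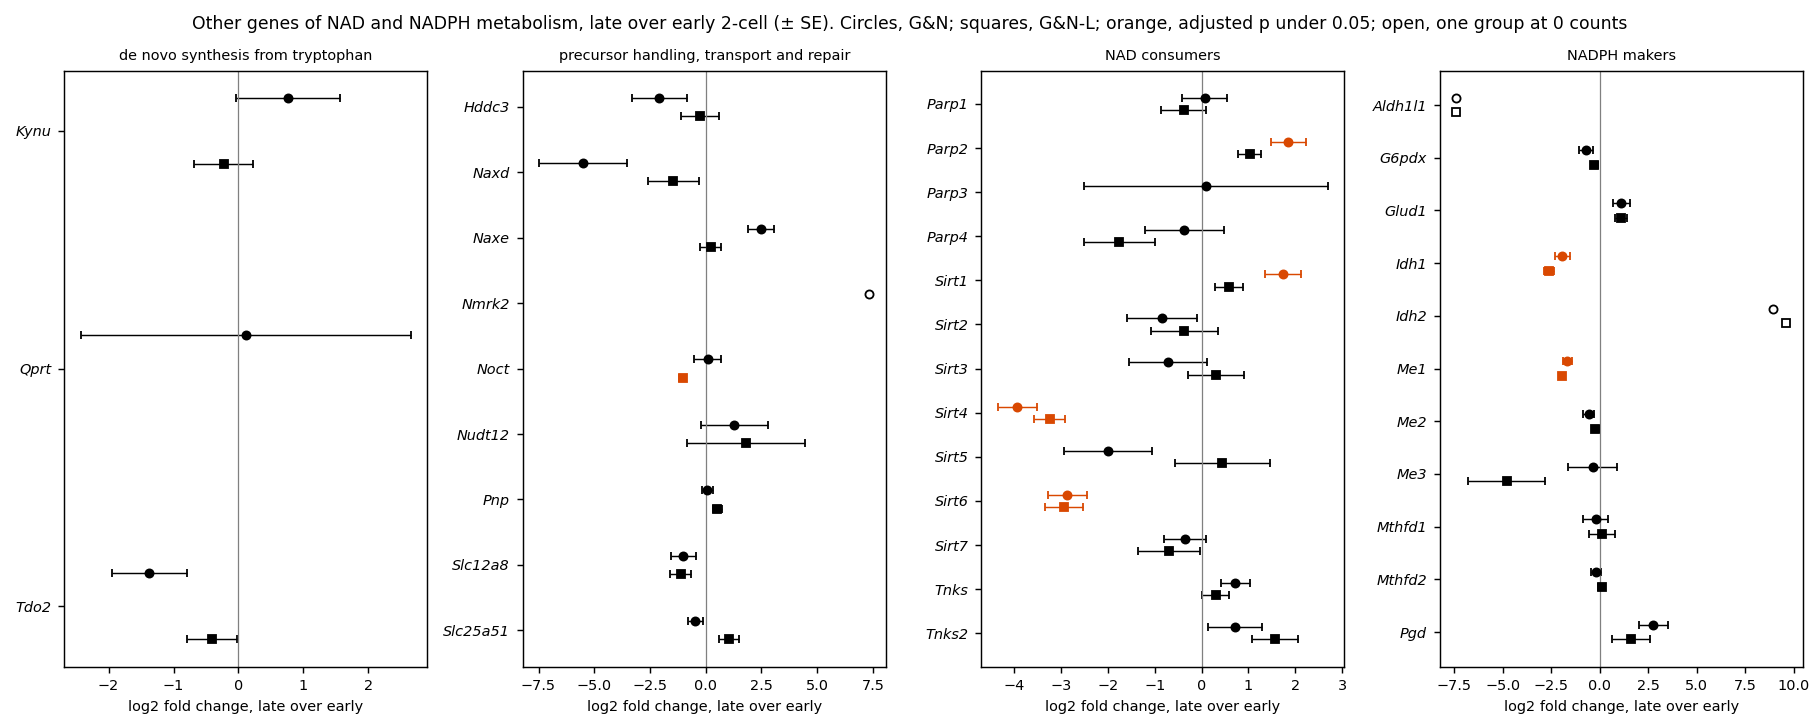
edgeR log2 fold change with SE, late over early 2-cell (x axis), of the other NAD and NADPH genes tested, by list; circles are G&N, squares G&N-L, orange marks an adjusted p under 0.05, and open symbols mark a group at 0 counts. Sirt4, Sirt6, Me1 and Idh1 are orange and to the left in both media, and Sirt1 and Parp2 are orange to the right in G&N.

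The labelled stages were read against marker genes. The summed level of 10 late 2-cell genes was 678 to 1087 CPM in the early libraries and 2437 to 5358 CPM in the late ones, and that of 10 maternal genes 7049 to 10472 and 2361 to 7526 CPM. Of the late 2-cell genes, Sp110 went the other way (96.5 to 177 CPM early, 55.4 to 84.6 CPM late). Tcstv1 (364 to 638 and 116 to 605 CPM) and Dppa2 (101 to 170 and 105 to 488 CPM) overlapped between the stages. The others were higher in every late library. Of the maternal genes, Padi6, Nlrp5, Npm2 and Bmp15 were lower in every late library. Mos, Zp1, Zp2, Gdf9 and Oosp1 overlapped between the stages. Zp3 overlapped too, but was at 90.4 to 157 CPM in the late H3K18R and WT libraries, against at most 65.2 CPM early. Oosp1 and Bmp15 were the highest of the maternal genes in every library and weigh most in their sum. Of 8 blood genes, 0 to 1 were detected early and 2 to 4 late, with sums up to 0.432 and between 26.1 and 87.7 CPM; Hba-a1 and Cd74 made up most of them, and Hbb-bs, Hbb-bt and Tyrobp were at 0 throughout. The sums of 15 cumulus and granulosa genes were 37.6 to 51.6 CPM early and 31.9 to 115 CPM late, with Amh and Inhba at 0. Nr5a2 was the highest of the 15 in every late library, at 17.2 to 74.3 CPM, against 18.3 to 23.3 CPM early. Cyp19a1 went the other way, from 13.3 to 22.9 CPM early to between 0 and 8.34 CPM late. The sums of 6 sperm genes were 15.5 to 23.6 and 2.75 to 11.6 CPM, with Prm2 the highest of them in the 4 early libraries. Their part in the stage differences was not tested.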

How the data were processed

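Libraries of 5 embryos were sequenced, 2 for each of 7 conditions. According to the submitters' processing notes and the study's methods, the authors ran FastQC and Trim Galore, mapped the reads with HISAT2 (build mm39), then used featureCounts for gene counts (versions and strand setting not given in the sources used here). The deposited table holds raw counts per gene. Genes kept by filterByExpr (minimum count 10) were tested in the 4 libraries of each comparison (8 for the interaction) with edgeR 4.0.16 (TMM scaling, quasi-likelihood test, Benjamini-Hochberg adjustment over all genes tested, threshold 0.05) in R 4.3.3, and with DESeq2 1.42.0 as an alternative. SE is the log2 fold change over the root of F. With 2 libraries against 2, an exact permutation test cannot go below p = 0.333, so none was used. Groups without overlap reach only this p, and the share of all genes without overlap was not counted. The edgeR step was tested on simulated data. Exon lengths and positions came from GENCODE vM39. Counting error alone gives the floor of 3 counts; PCR copies are not independent molecules. The 10 genes, the other lists and the rule for named genes (those past the threshold, at most 3 by p per comparison, and groups of 5 or fewer; a few others were named after their values were seen) were chosen with earlier results of these data known. Exons overlapped genes on the other strand in Nmnat1 (1.59% of the length), Nmrk1 (4.63%) and Nnt (3.98%). Replicates correlated with r from 0.844 to 0.917, and in no pair did the counts agree within sampling noise. Alternatives were other scalings and filters, 1 fit over 14 libraries, a replicate block and leaving out each library.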

Additional observations from a re-analysis of the deposited data

How the results depend on the processing

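Of 894 recomputed log2 fold changes of the 10 genes, 809 kept their direction and their side of the threshold, 19 passed it newly, 8 no longer passed it and 58 changed sign; none of the values that changed sign had passed the test, and the cause was not tested. The number of the 10 genes called changed as follows. In late G&N against early G&N it was 2, against 3 by DESeq2 and without a filter, 1 with the replicate block and between 0 and 1 with a library left out. In late G&N-L against early G&N-L it was 0, against 3 by DESeq2, 2 in the fit over 14 libraries and 1 with library totals, without a filter or with at least 10 counts in every library, and between 0 and 1 with a library left out. In late WT against late G&N it was 0, against 2 by DESeq2, 2 without a filter and 1 with at least 10 counts in every library. In late G&N-L against late G&N it was 0, against 1 by DESeq2. Under the other alternatives run, these counts and those of the other 4 comparisons and the interaction were the same. An equal count does not mean the same genes. In late G&N against early G&N, Naprt did not pass in the fit over 14 libraries (adjusted p = 0.072 by edgeR). It was not tested there with at least 10 counts in every library. Over all genes, edgeR and DESeq2 called 0 and 916 in late G&N-L against late G&N, 0 and 37 in early embryos, 0 and 1183 for Lac-CoA against G&N-L, 0 and 471 for Lac-CoA against late G&N, 1 and 118 for H3K18R, 2654 and 5959 for stage in G&N, 2203 and 5218 in G&N-L, 877 and 4104 for WT against late G&N, and 0 and 224 for the interaction. Of the other NAD genes, 6 were called for stage in G&N (0 to 10 over the alternatives), 5 in G&N-L (2 to 11) and 4 for WT (0 to 14).

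With library totals in place of TMM the median log2 fold change of all genes moved from 0.08 to 0.46 for stage in G&N and from 0.15 to 0.51 in G&N-L, and the share of calls that were higher from 59.9% to 76.4% and from 50.4% to 72.6%; Nmnat1 and Naprt kept their calls there, and Nadsyn1 in G&N-L gained one. Same-numbered libraries did not deviate together (r from −0.0402 to 0.00709 over 8 comparisons), so the block has no support as a pairing.

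Signs that changed with a setting were these. In early G&N-L against early G&N, Nampt was −0.0069 with library totals and −0.099 in the fit over 14 libraries, where Nadk2 was −0.054. In Lac-CoA against late G&N, Nmrk1 was 0.037 with library totals and 0.26 with the replicate block, Nadk −0.048 in the fit over 14 libraries and −0.013 with the replicate block, and Nampt −0.066 in the fit over 14 libraries. The interaction of Nadk was 0.011 in the fit over 14 libraries. With a library left out the log2 fold change crossed 0 in these ranges. In late G&N-L against late G&N: Nmnat2 −0.096 to 0.53, Nadk −0.048 to 0.28, Nnt −6.73 to 0.039. In early embryos: Nampt −0.27 to 0.47, Nmnat1 −2.96 to 1.35, Nadk −0.39 to 0.59, Nadk2 −0.38 to 0.44. In Lac-CoA against late G&N-L: Nampt −0.0042 to 0.44, Nadsyn1 −1.32 to 0.14, Nadk −0.65 to 0.24. In Lac-CoA against late G&N: Nampt −0.22 to 0.21, Nmnat3 −9.20 to 7.12, Nmrk1 −0.76 to 1.31, Nadk −0.46 to 0.39, Nadk2 −0.32 to 0.83, Nnt −0.45 to 8.57. In H3K18R against WT: Nampt −1.04 to 0.032, Nmnat1 −0.44 to 0.15, Nmnat3 −2.85 to 0.69, Nadk −0.87 to 0.18, Nadk2 −0.86 to 0.71, Nnt −0.35 to 8.03. For stage: Nadsyn1 −0.92 to 1.70 in G&N, Naprt −0.39 to 7.35 in G&N-L. In WT against late G&N: Nmrk1 −1.12 to 1.02, Nadk −0.27 to 0.095, Nnt −6.56 to 7.21. In the interaction: Nampt −0.71 to 0.11, Nmnat1 −2.80 to 1.58, Nmrk1 −1.36 to 1.18, Nadk −0.47 to 0.53, Nnt −10.88 to 1.499.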
